A study of Mus musculus with 8 samples.

Results

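The genes of glycolysis and of the response to low oxygen were followed through sorted mammary tumor cells with and without Lats1, a kinase of the Hippo pathway. The list held 40 gene symbols, chosen by name from the pathways with earlier results of these data known, of which 38 had a row among the 10924 genes of the table. A total of 33 had a normalized read count of at least 10 in at least 2 libraries and were tested among 9031 genes. Pfkp and Ppp1r3c had no row, and Aldoc, Pdk1, Pfkfb3, Higd1a and Ero1l lay under the filter. The cells came from lines derived from mammary tumors of FBV/N mice (spelled as in the labels), in which the MMTV promoter, active in mammary epithelium, drives the polyoma middle T oncogene (PyMT). Every group therefore carried the oncogene. The groups were Lats1-CKO basal-like, WT basal-like, Lats1-CKO luminal and WT luminal cells, with 2 libraries each. Lats1-CKO stands for a conditional deletion of Lats1 and WT for intact Lats1. Luminal cells were sorted as EpCAM-high and CD49f-high, and basal-like cells as EpCAM-low and CD49f-high. The study grew the sorted populations for a short time, not stated, before RNA was taken, in a medium with serum and with no oxygen setting given in the labels. The study also described fibroblasts, to various degrees, in cultures derived from Lats1-CKO tumors. RNA was measured by MARS-seq, which reads the 3′ ends of transcripts, and each value is a read count divided by the size factor of its library. Nothing in the labels says that the libraries of a group came from separate cultures, so that a p-value here covers no more than the spread of these 8 libraries, which may be technical.

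Glycolysis splits glucose into pyruvate in the cytosol, and lactate dehydrogenase turns pyruvate into lactate when respiration is low. When oxygen is short, the prolyl hydroxylases of the EGLN family stop marking the α subunits of hypoxia-inducible factor (HIF) for destruction, and HIF binds a short core motif at genes of glucose uptake, glycolysis, angiogenesis, pH control and mitophagy. Tumor cells often run glycolysis at a high rate even with oxygen present. HIF1α is regulated mainly as a protein, so that its mRNA is not a measure of its activity.

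The table summed to between 1070358 and 2334446 reads per library, and 1 read was worth between 0.638 and 1.35 normalized counts. Lats1 had 8.04 and 11.6 normalized counts in Lats1-CKO basal-like cells, against 30.3 and 42.2 in WT basal-like cells. In luminal cells it had 13.4 and 9.08 in Lats1-CKO, against 41.9 and 62.5 in WT. The deleted exons are not named in the labels, and 3′ reads can lie outside them. Libraries of 1 group were not alike throughout. Over the 9031 genes, 0 of 8 libraries had its highest correlation of log2 values with the other library of its own group. The values of 6 luminal epithelial markers summed to between 135 and 229 in Lats1-CKO basal-like cells, against 3137 to 7014 in WT basal-like cells, and in luminal cells to 2482 to 5995 in Lats1-CKO, against 9482 to 9826 in WT. Krt5 and Krt14, which define basal epithelium, did not mark the sorted basal-like cells, since 4 basal markers summed to 170 and 705 there in Lats1-CKO, against 1123 to 2142 in WT, and in the luminal cells to 3055 and 19698 in Lats1-CKO, against 1993 to 3866 in WT. The 5 measured fibroblast markers summed to 335 and 285 in Lats1-CKO basal-like cells and to at most 48.4 in any other group. Different genes made up these sums in replicates 1 and 2. Col3a1 had 238 and 38.8 there, Pdgfra 76.3 and 2.59, and Col1a2 14.7 and 220. Col1a1 had 5.36 and 10.4, and Dcn 0 and 12.9, so the markers did not rise together. The 5 measured cartilage markers reached 30393 in Lats1-CKO basal-like replicate 2 and 4012 in Lats1-CKO luminal replicate 2, with at most 299.9 in the other 6 libraries. Kdr, the 1 endothelial marker with a row, was at 18.8 in Lats1-CKO basal-like replicate 1 and at most 1.92 elsewhere. Of the leukocyte markers only Cd68, Csf1r and Lyz2 had a row. Their values summed to 33.5 and 89.3 in Lats1-CKO basal-like cells and to at most 37.4 in the other libraries.

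The core motif of HIF was searched as ACGTG and GCGTG on both strands. The palindrome CACGTG, which is also an E-box bound by other factors, counts on both strands. Of the 38 symbols with a row, 35 matched a RefSeq promoter of 300 bases (250 before and 50 after the start, GRCm38.p6), 1 of them through a newer symbol. ACGTG stood in 20 of the 35 (57.1%), compared with 26.3% of the 8724 promoters of genes in the table and 19.7% of all 27025 promoters. Either motif stood in 27 of 35 (77.1%), compared with 64.9% and 43.8%. A match describes these letters only and is no binding site. The stretches below belong to the genes whose values are described most closely, and to Ldha, a classical HIF target. They are written 5′ to 3′ on the strand of the gene, with each motif in capitals. Since a motif may lie on either strand, it reads ACGTG or GCGTG, or CACGT or CACGC. Overlapping matches run together as CACGTG.
Car9, chr4:43506946-43507025, plus strand: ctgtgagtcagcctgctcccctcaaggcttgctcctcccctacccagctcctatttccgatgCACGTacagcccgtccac
Adm, chr7:110627547-110627626, plus strand: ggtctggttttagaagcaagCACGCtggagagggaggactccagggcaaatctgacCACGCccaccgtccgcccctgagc
Ddit4, chr10:59951880-59951959, minus strand: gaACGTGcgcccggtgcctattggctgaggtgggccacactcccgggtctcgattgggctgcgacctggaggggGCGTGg
Egln3, chr12:54204045-54204124, minus strand: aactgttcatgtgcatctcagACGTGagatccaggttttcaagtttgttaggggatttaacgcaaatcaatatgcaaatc
Bnip3, chr7:138909572-138909651, minus strand: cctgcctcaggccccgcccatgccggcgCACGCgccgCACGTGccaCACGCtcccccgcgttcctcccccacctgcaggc
Ldha, chr7:46845723-46845802, plus strand: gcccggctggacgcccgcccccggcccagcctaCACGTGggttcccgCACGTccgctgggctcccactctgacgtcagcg
Each stretch was the 80 bases before the RefSeq start that held the most matches, so its counts rest on that choice. In GENCODE M21 the Car9 gene begins at 43506966 and the Ldha gene at 46841475. By those starts, part of the Car9 stretch and all of the Ldha stretch lie inside the gene. In these stretches Ldha held 3 matches of ACGTG and none of GCGTG, while Adm held 2 matches of GCGTG and none of ACGTG. Bnip3 held 2 of each. Over the whole promoter of 300 bases Ldha held 5 of ACGTG and 2 of GCGTG, and Bnip3 held 2 and 3. Car9 and Egln3 held 1 match each, of ACGTG. Their fold changes between the genotypes had opposite signs, and a link between motif and expression was not tested.

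**Figure D1:**
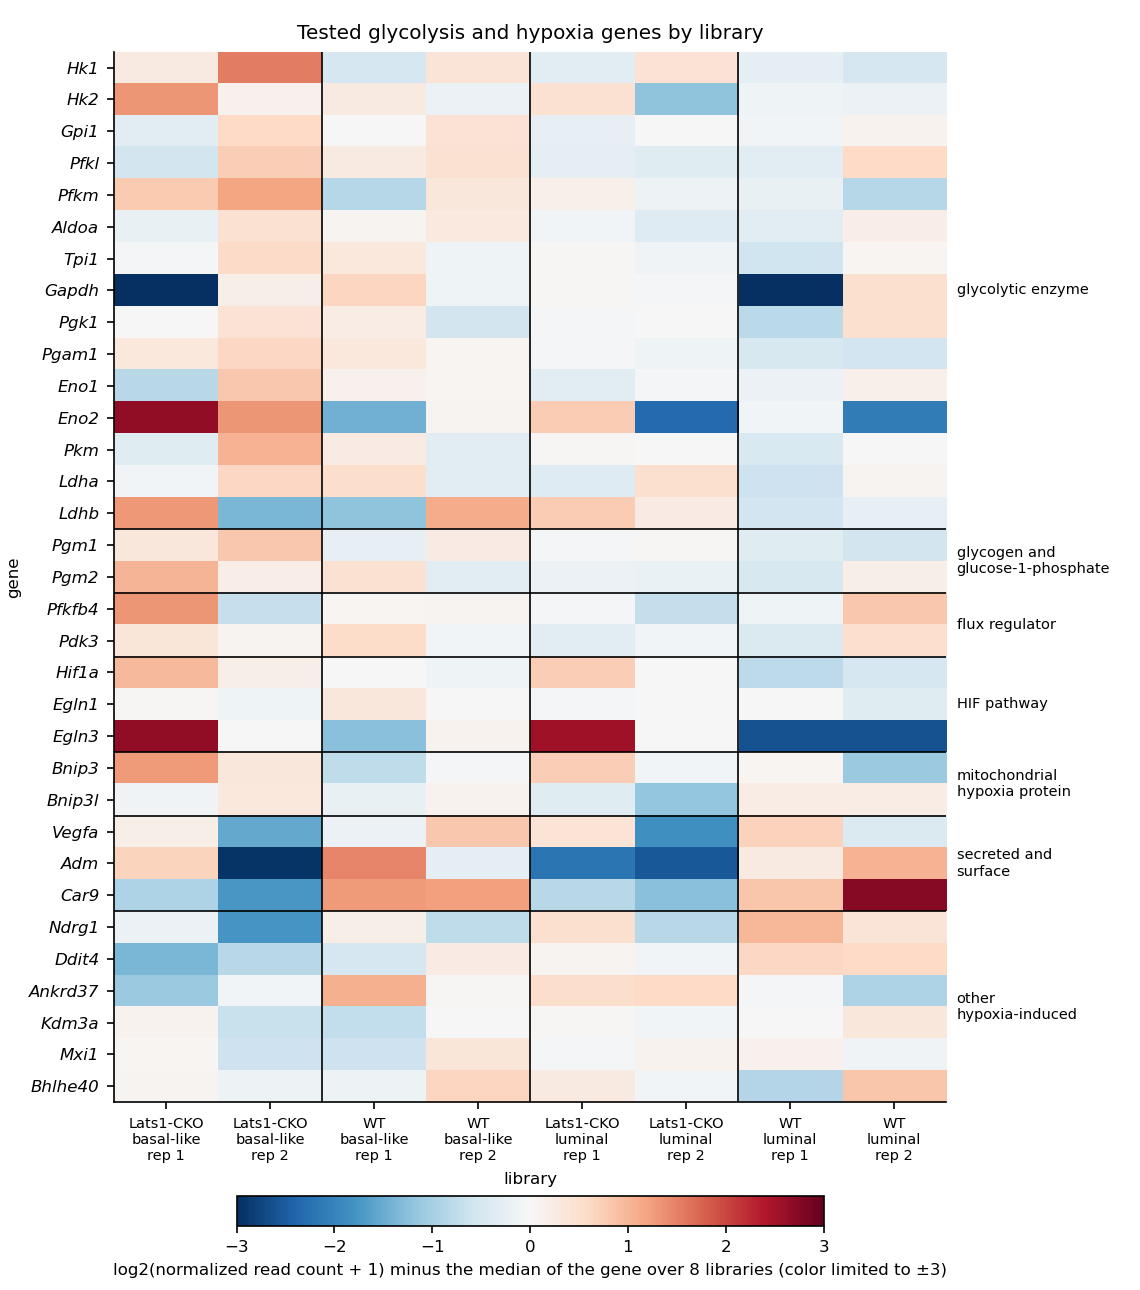
Each row is a tested gene and each column a library, and the color gives log2(normalized read count + 1) minus the median of that gene over the 8 libraries, limited to ±3. Gapdh is dark blue in 2 libraries only, Egln3 is dark red in replicate 1 of both Lats1-CKO populations, and Car9 is blue in the 4 Lats1-CKO libraries and red in the 4 WT libraries.

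By limma, 0 of the 33 tested genes passed an adjusted p of 0.05 in any of the 7 comparisons. Genotype comparisons set Lats1-CKO over WT, within basal-like cells, within luminal cells or over both populations. Population comparisons set basal-like over luminal, within Lats1-CKO, within WT or over both genotypes, and the interaction is the population difference in Lats1-CKO minus that in WT. The share of all genes called by limma was 0.554% for the genotype in basal-like cells, 0% for the genotype in luminal cells and 0.288% for the genotype over both populations. It was 0.487% for the population in Lats1-CKO, 0% for the population in WT, 0.376% for the population over both genotypes and 0% for the interaction. An unadjusted p under 0.05 was reached by 8 of the 33 genes for the genotype over both populations, where 9.36% of all genes reached it. These were Adm, Bnip3, Car9, Ddit4, Egln3, Hif1a, Pfkm and Pgm1. The counts were 3 for the genotype in luminal cells (2.78% of all genes), 3 for the genotype in basal-like cells (8.86%) and 3 for the population over both genotypes (6.48%). They were 2 for the population in Lats1-CKO (7.32%), 0 for the population in WT (1.47%) and 0 for the interaction (2.33%). DESeq2 was run on the tested genes only and called at an adjusted p under 0.05. The study itself called genes by a fold change cutoff and an unadjusted p. DESeq2 called Car9 and Egln3 for the genotype over both populations with its defaults, where 3% of all genes were called, and Car9 alone as the study had set it (2.49%). It called 0 of the 33 in the other 6 comparisons, with its defaults and as the study had set it. The shares of all genes were 2.1% and 2.02% for the genotype in basal-like cells and 0.255% and 0.244% in luminal cells. For the population they were 1.43% and 1.44% in Lats1-CKO, 0.0443% and 0.0111% in WT, and 1.41% and 1.31% over both genotypes. For the interaction they were 0.301% of the 7980 genes that the defaults gave an adjusted p, and 0.244% of the 9031. edgeR called 0 of the 33 in the 7 comparisons, with shares of all genes of 0.188%, 0% and 0.277% for the genotype in basal-like cells, in luminal cells and over both, 0.354%, 0% and 0.233% for the population in Lats1-CKO, in WT and over both, and 0% for the interaction. The values that follow are therefore descriptions, library by library.

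Gapdh, the enzyme that oxidizes glyceraldehyde-3-phosphate and a common reference gene, was nearly lost from 2 libraries of different groups. It had 37.5 and 1852 normalized counts in Lats1-CKO basal-like cells, against 2577 and 1499 in WT basal-like cells. In luminal cells it had 1694 and 1611 in Lats1-CKO, against 25.7 and 2293 in WT. Libraries of the same group thus differed 49.4-fold in Lats1-CKO basal-like and 89.3-fold in WT luminal cells, while the other 6 libraries averaged 1921 ± 424 (SD, n = 6). By its level within a library, Gapdh ranked between 85 and 145 in those 6 libraries, 5210 in Lats1-CKO basal-like replicate 1 and 6165 in WT luminal replicate 1.

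No other gene had this pattern. Among the 3453 genes with at least 50 normalized counts in each of the other 6 libraries, the lowest of the 6 Gapdh values was 39.96 times its higher value in the 2 low libraries. The next genes in that order were Ctnnal1 (α-catulin), with a ratio of 2.65, and Cd109, with 1.88. The 3′ end of Gapdh (chr6:125161715-125166467, minus strand, GRCm38) matched 70 other annotated genes over at least 75 bases at 97% identity or more, 66 of them pseudogenes. Only Gm12070, Gm5069 and Gm5523 of these had a row, none above 15.5 in any library. In the 2 libraries that were low in Gapdh these 3 genes had between 1.35 and 10.8. Since reads that fit several places may have been left out or moved in the counting, the Gapdh values are uncertain, and the part of these copies in the low values was not tested.

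**Figure D2:**
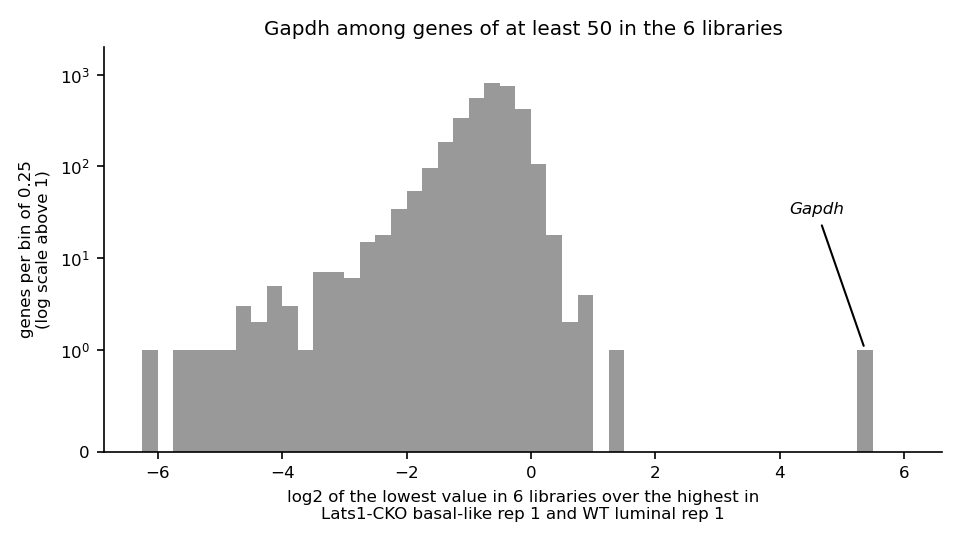
Each bar counts genes (3453 in all, log scale above 1) by the log2 ratio of the lowest value in 6 libraries to the higher value in Lats1-CKO basal-like replicate 1 and WT luminal replicate 1. Gapdh stands alone at a ratio of 39.96, and the next gene, Ctnnal1, is at 2.65.

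Fold changes of Gapdh rest on which of the libraries are read. On the log2 scale the population difference in WT was 2.99 ± 2.23 (SE), and -0.22 without WT luminal replicate 1. The genotype difference in luminal cells was 2.74 ± 2.23, and -0.47 without the same library. The population difference in Lats1-CKO was -2.63 ± 2.23, and 0.17 without Lats1-CKO basal-like replicate 1. The genotype difference in basal-like cells was -2.88 ± 2.23, and -0.09 without that library.

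The most abundant of the other enzymes of the glycolytic chain were expressed in every library, with smaller differences than those of Gapdh. Aldoc (aldolase C), at the other end, stayed at or under 4.77 normalized counts and was at 0 in 3 libraries. Pkm (pyruvate kinase, the last step to pyruvate) ran between 3466 and 9881 normalized counts, Ldha (lactate dehydrogenase A) between 1578 and 3700, and Aldoa (aldolase A) between 1577 and 2853. Tpi1 (triosephosphate isomerase), Gpi1 (glucose-6-phosphate isomerase) and Eno1 (enolase 1) stayed between 297 and 1279. Pgk1 (phosphoglycerate kinase), the only one that makes ATP ahead of pyruvate kinase, had 16.2 to 41.5.

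The normalized counts of the 15 measured glycolytic enzymes other than Gapdh summed to 10536 and 21055 in Lats1-CKO basal-like cells and 14166 and 11432 in WT basal-like cells. In luminal cells the sum was 11240 and 12337 in Lats1-CKO, against 8841 and 12560 in WT. The 4 basal-like libraries averaged 14297 ± 4762 and the 4 luminal libraries 11245 ± 1703 (SD, n = 4 each), so that the ranges overlapped. Lats1-CKO basal-like replicate 2 was the highest library for 10 of the 14 tested enzymes other than Gapdh, among them Pkm, Ldha, Aldoa and Hk1, and the lowest for Ldhb. It was also the library with the highest cartilage and leukocyte marker sums, and the part of those cells or genes was not tested. In bulk samples a larger share of cells of a type and more RNA per cell cannot be told apart.

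For the population in WT, all 15 tested glycolytic enzymes had a positive log2 fold change (14 under TMM or table-total scaling). Their median was 0.28, compared with 0.01 over all genes, of which 51.3% were positive. None reached an unadjusted p under 0.05. This count rested on WT luminal replicate 1, which was the lowest library for Pkm, Ldha, Tpi1, Pgk1 and Gapdh, since without it 9 of 15 were positive. That library also had 1526 for the sum of 6 interferon-induced genes, against 441 or less in the other libraries, and 220 for 5 proliferation genes, against 522 or more. The part of these in the result was not tested.

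For the population in Lats1-CKO 13 of 15 were positive, with a median of 0.34, where 51.0% of all genes were positive, and 9 of 15 were without Lats1-CKO basal-like replicate 2. Between the genotypes 10 of 15 were positive in either population, with medians of 0.18 in basal-like and 0.24 in luminal cells, where 48.1% and 51.0% of all genes were positive. In basal-like cells the count ran from 7, without Lats1-CKO basal-like replicate 2, to 13, without Lats1-CKO basal-like replicate 1. Without WT luminal replicate 1 only 5 of 15 were positive in luminal cells. The fit over both genotypes gave 14 of 15 positive for basal-like against luminal cells, with a median of 0.31, where 51.9% of all genes were positive.

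**Figure D3:**
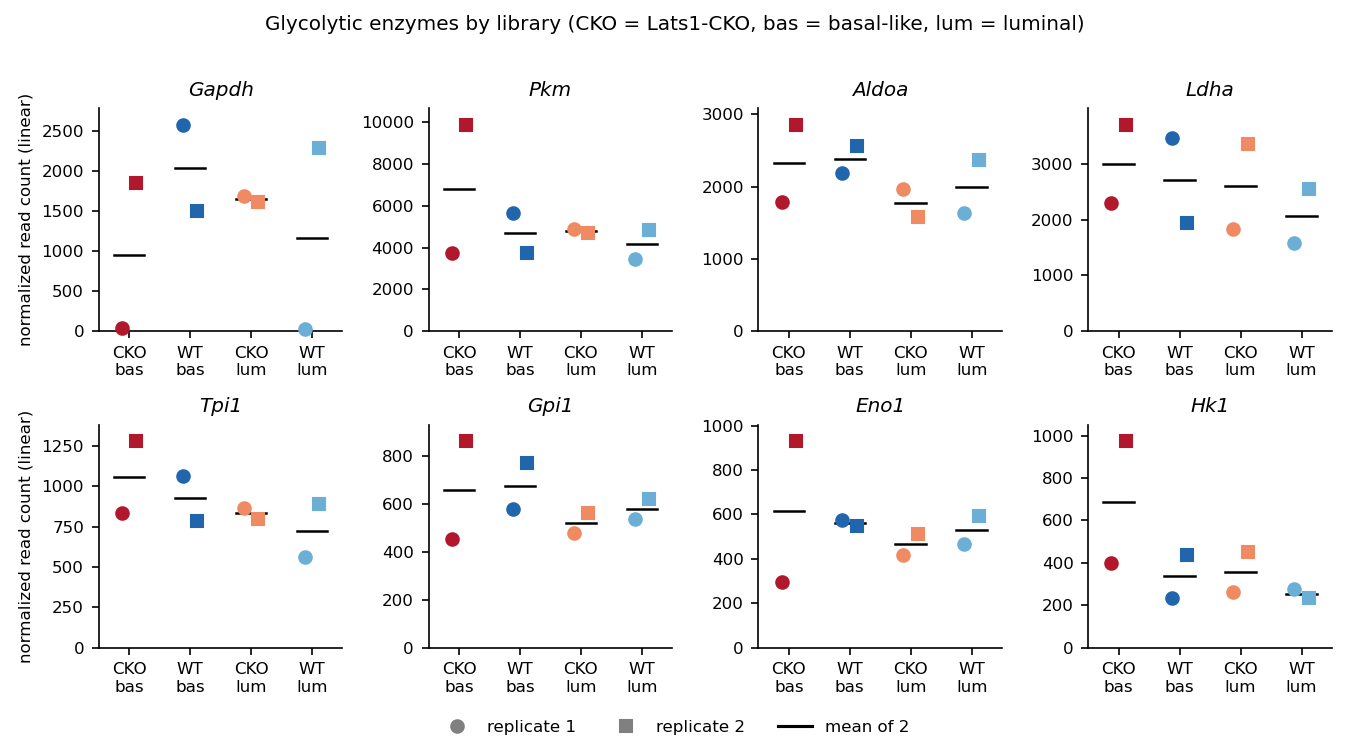
Points are the normalized read counts of 8 glycolytic enzymes (linear axis from 0) in each library, by group, with a line at the mean of 2. Gapdh is at 37.5 in Lats1-CKO basal-like replicate 1 and at 25.7 in WT luminal replicate 1, while no other enzyme shown is under 232 in any library, and Lats1-CKO basal-like replicate 2 is the highest library for the 7 enzymes other than Gapdh.

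Pgam1 (phosphoglycerate mutase; chr19:41911923-41918660, plus strand) was the 1 gene of the list whose 4 basal-like libraries all lay above the 4 luminal libraries, where 0.997% of all genes did, and 0 lay entirely below, where 1.85% did. It had 38.8 and 47.9 normalized counts in Lats1-CKO basal-like cells, against 29.7 and 28.3 in Lats1-CKO luminal cells. In WT it had 38.9 and 31.8 in basal-like cells, against 21.6 and 20.4 in luminal cells. The closest values were 31.8 and 29.7, so that the separation was narrow. The log2 fold change over both genotypes was 0.64 ± 0.24 (SE) with an adjusted p of 0.667 by limma, and between 0.56 and 0.71 when each library was left out.

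Among the isoenzymes, Eno2 had the widest range over the libraries, 47.1-fold, compared with 100.3-fold for Gapdh. Eno2, the enolase best known from neurons, had 95.1 and 37.5 normalized counts in Lats1-CKO basal-like cells, against 4.66 and 15.1 in WT basal-like cells. It had 24.9 and 2.02 in Lats1-CKO luminal cells, against 13.5 and 2.55 in WT luminal cells. Both Lats1-CKO basal-like libraries lay above the other 6. By limma the genotype difference in basal-like cells was 2.67 ± 1.18 on the log2 scale (SE, adjusted p = 0.581), and the population difference in Lats1-CKO 2.78 ± 1.18 (adjusted p = 0.671). Leaving out Lats1-CKO luminal replicate 2 gave a population difference of 1.23, and leaving out replicate 1 of that group gave 4.33. The ratio of Eno1 to Eno2 was 3.13 and 24.7 in Lats1-CKO basal-like cells, against 123 and 36.3 in WT basal-like cells. In luminal cells it was 16.7 and 254 in Lats1-CKO, against 34.6 and 232 in WT.

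Pfkm, the muscle isoform of phosphofructokinase, the committed step of glycolysis, had 80.4 and 106 in Lats1-CKO basal-like cells, against 24.9 and 58.1 in WT basal-like cells. It had 50.9 and 41.4 in Lats1-CKO luminal cells, against 39.2 and 24.9 in WT luminal cells. The groups did not overlap within either population, and the highest WT value lay above both Lats1-CKO luminal values. Between the basal-like groups the log2 fold change was 1.26 ± 0.47 (SE, adjusted p = 0.484) and between the genotypes over both populations 0.90 ± 0.33 (adjusted p = 0.462), by limma. Without WT basal-like replicate 1 these values were 0.66 and 0.60. The liver isoform Pfkl had log2 fold changes for the genotype of -0.26 in basal-like and -0.45 in luminal cells, which turned to 0.38 without Lats1-CKO basal-like replicate 1 and to 0.0074 without WT luminal replicate 2. The ratio of Pfkl to Pfkm was 1.35 and 2.51 in Lats1-CKO basal-like cells, against 7.66 and 3.78 in WT basal-like cells, and 2.60 and 2.98 in Lats1-CKO luminal cells, against 3.24 and 9.67 in WT luminal cells. All 4 Lats1-CKO ratios were below all 4 WT ratios, a pattern chosen after the values were seen.

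Hk2, the inducible hexokinase of tumors, had 87.1 and 37.5 in Lats1-CKO basal-like cells, against 41.2 and 30.2 in WT basal-like cells. It had 47.0 and 14.1 in Lats1-CKO luminal cells, against 31.1 and 30.0 in WT luminal cells. The groups overlapped, except that both Lats1-CKO basal-like values were above those of WT luminal cells. The widely expressed Hk1 gave 400 and 972 in Lats1-CKO basal-like cells, against 235.5 and 437 in WT basal-like cells, with 264 and 449 in Lats1-CKO luminal cells, against 276 and 232 in WT luminal cells.

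Ldhb, the lactate dehydrogenase subunit that favors pyruvate, had a wide spread between the libraries of each basal-like group. It had 279 and 42.7 in Lats1-CKO basal-like cells, against 48.2 and 247 in WT basal-like cells, and 191 and 133 in Lats1-CKO luminal cells, against 75.7 and 95.0 in WT luminal cells. The genotypes did not overlap in luminal cells, with higher values in Lats1-CKO, and overlapped in basal-like cells. The ratio of Ldha to Ldhb was 8.25 and 86.6 in Lats1-CKO basal-like cells, against 72.0 and 7.86 in WT basal-like cells. In luminal cells it was 9.62 and 25.2 in Lats1-CKO, against 20.9 and 26.8 in WT. The ratios of the genotypes overlapped in both populations.

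The phosphoglucomutases, which link glucose-6-phosphate to glycogen, were Pgm1 and Pgm2, whose symbols have been exchanged between annotation releases. Pgm1 had 188 and 260.2 in Lats1-CKO basal-like cells, against 125 and 176 in WT basal-like cells, and 146 and 152 in Lats1-CKO luminal cells, against 115 and 102 in WT luminal cells. Within each population and within each genotype the libraries did not overlap. Its log2 fold change was 0.51 ± 0.22 (SE) both for Lats1-CKO over WT (adjusted p = 0.524) and for basal-like over luminal cells (adjusted p = 0.769), by limma. Pgm2 ran between 23.0 and 67.0.

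Of the enzymes that set glycolytic flux, Pdk3, a kinase that shuts off pyruvate dehydrogenase, had 20.3 to 41.2 normalized counts and Pfkfb4, a bifunctional regulator of fructose-2,6-bisphosphate, 5.05 to 24.1. Pdk1 and Pfkfb3, which are commonly induced by HIF, stayed at or under 6.06 and 9.46 and were not tested. Pdk1 had at most 6 reads in a library and Pfkfb3 at most 8.

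The sensors of oxygen were next. Egln3 (prolyl hydroxylase 3, itself induced by HIF; chr12:54178981-54203860, minus strand) had 37.5 and 5.18 normalized counts in Lats1-CKO basal-like cells, against 1.55 and 5.57 in WT basal-like cells. It had 34.5 and 5.05 in Lats1-CKO luminal cells, against 0 and 0 in WT luminal cells. In the reads these were 41 against 0 for the luminal groups, at least 15.5-fold higher in Lats1-CKO when the WT group is set to a floor of 3 reads. Of the 41 reads 36 came from replicate 1, and the bound was 3.88-fold without that library, 26.6-fold without replicate 2 and 4.97-fold without WT luminal replicate 2. WT basal-like cells had 9 reads and WT luminal cells 0. The mean over the genotype was 20.6 ± 17.9 in Lats1-CKO and 1.78 ± 2.63 in WT libraries (SD, n = 4 each).

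The Egln3 values of the genotypes overlapped in the basal-like cells, where Lats1-CKO replicate 2 had 5.18 and WT replicate 2 had 5.57. The high values were those of replicate 1 in both Lats1-CKO populations, and the numbers were given by sample order. Whether libraries of equal number came from 1 culture is not stated in the labels. Over all genes, Lats1-CKO basal-like replicate 1 had its highest correlation with Lats1-CKO luminal replicate 1 (r = 0.852) and replicate 2 with luminal replicate 2 (r = 0.868), across genes, which are not independent replicates. For the genotype over both populations the adjusted p was 0.354 by limma (unadjusted 0.0131) and 0.00964 by DESeq2 with its defaults. Kdr, an endothelial marker, was at 18.8 in Lats1-CKO basal-like replicate 1 and at 1.92 in Lats1-CKO luminal replicate 1. Its part was not tested.

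Egln1 (prolyl hydroxylase 2), the main oxygen sensor of most cells, varied least of all genes of the list, between 82.3 and 134, with a coefficient of variation of 13.5% over the 8 libraries. Hif1a, which encodes the oxygen-regulated subunit, had 38.8 and 22.0 in Lats1-CKO basal-like cells, against 19.4 and 17.5 in WT basal-like cells. It had 32.6 and 19.2 in Lats1-CKO luminal cells, against 10.8 and 13.4 in WT luminal cells. The groups did not overlap within either population. Over both populations the lowest Lats1-CKO value, 19.2, lay under the highest WT value, 19.4, and they were in the other order under TMM scaling and under scaling to the table total. Its log2 fold change for the genotype was 0.82 ± 0.33 (SE, adjusted p = 0.502, limma).

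Bnip3 (chr7:138890836-138909519, minus strand), a mitochondrial protein that marks mitochondria for removal, had 48.2 and 24.6 in Lats1-CKO basal-like cells, against 10.9 and 18.3 in WT basal-like cells. It had 32.6 and 18.2 in Lats1-CKO luminal cells, against 20.3 and 8.29 in WT luminal cells. The basal-like groups did not overlap and the luminal groups did. Over both populations the log2 fold change was 1.04 ± 0.43 (SE, adjusted p = 0.517, limma), and 4 other annotated genes match its 3′ end. Its paralog Bnip3l had 9.38 and 12.9 in Lats1-CKO basal-like cells, against 8.55 and 11.1 in WT basal-like cells, and 7.68 and 4.04 in Lats1-CKO luminal cells, against 12.2 and 12.1 in WT luminal cells. Both Lats1-CKO luminal values of Bnip3l were below both WT luminal values, and those of Bnip3 overlapped. Higd1a, a small mitochondrial protein, stayed at or under 14.2 and was not tested.

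Among the secreted and surface products, Car9 (carbonic anhydrase 9, the membrane enzyme that acidifies the outside of hypoxic cells; chr4:43506966-43513729, plus strand) separated the genotypes. It had 5.36 and 2.59 normalized counts in Lats1-CKO basal-like cells, against 28.0 and 27.0 in WT basal-like cells. It had 5.76 and 4.04 in Lats1-CKO luminal cells, against 20.3 and 79.1 in WT luminal cells. Car9 was the 1 gene of the list whose 4 Lats1-CKO libraries all lay below the 4 WT libraries, as 2.11% of all genes did, and 0 lay above, as 2.44% did. The means were 4.44 ± 1.43 in Lats1-CKO and 38.6 ± 27.2 in WT libraries (SD, n = 4 each). The log2 fold change was -2.70 ± 0.50 (SE) over both populations, with an unadjusted p of 0.000863 and an adjusted p of 0.108 by limma. It was -2.58 in basal-like cells (adjusted p = 0.324) and -2.82 in luminal cells (adjusted p = 0.9998). DESeq2 gave adjusted p values of 0.00109 with its defaults and 0.000841 as the study had set it, and fold changes of -3.08 and -1.93. When each library was left out, the limma value over both populations stayed between -3.18 and -2.22. Basal-like and luminal libraries overlapped in both genotypes.

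Adm (adrenomedullin, a vasodilating peptide; chr7:110627661-110629820, plus strand) had 26.8 and 1.29 in Lats1-CKO basal-like cells, against 47.4 and 13.5 in WT basal-like cells. It had 2.88 and 2.02 in Lats1-CKO luminal cells, against 20.3 and 35.1 in WT luminal cells. In luminal cells the genotypes did not overlap, and in basal-like cells Lats1-CKO replicate 1 lay between the WT libraries. By limma the log2 fold change was -3.02 ± 1.16 (SE) in luminal cells (adjusted p = 0.9998) and -2.37 ± 0.82 over both populations (adjusted p = 0.413). The value over both populations was -1.47 without Lats1-CKO basal-like replicate 2. Vegfa, the main angiogenic factor, had 414 and 126 in Lats1-CKO basal-like cells, against 323 and 637 in WT basal-like cells, and 486 and 101 in Lats1-CKO luminal cells, against 592 and 269 in WT luminal cells. Its groups overlapped in both populations. All 3 genes of this class had negative fold changes over both populations, as 4602 of the 9031 genes did, and in each the lowest library was a Lats1-CKO library.

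**Figure D4:**
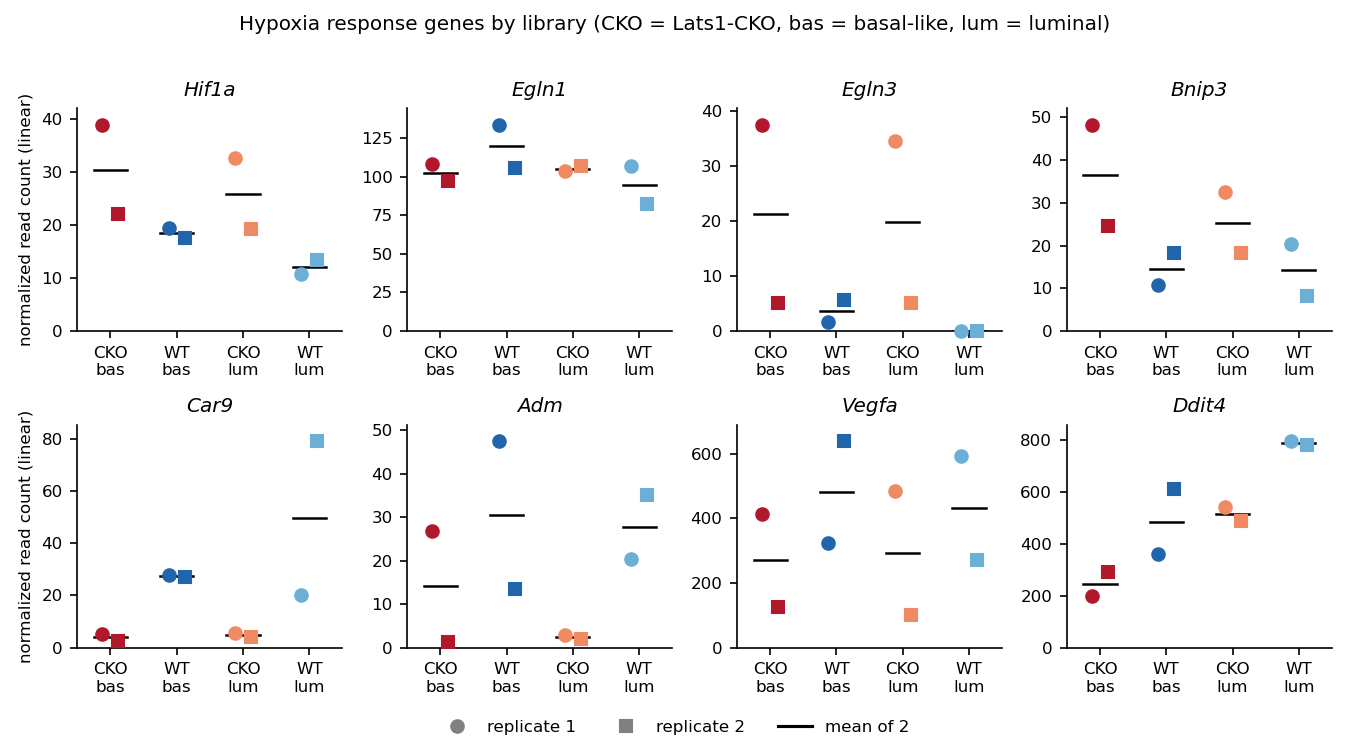
Points are the normalized read counts of 8 hypoxia response genes (linear axis from 0) in each library, by group, with a line at the mean of 2. Car9 lies at 5.76 or less in the Lats1-CKO libraries and at 20.3 or more in the WT libraries, Egln3 is above 34 in replicate 1 of both Lats1-CKO populations, and Egln1 hardly varies.

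Of the remaining genes induced by low oxygen, Ddit4 and Ndrg1 had the lowest fold changes for the genotype. Ddit4 (REDD1, an inhibitor of mTORC1 signaling; chr10:59949669-59951834, minus strand) had 198 and 289.9 in Lats1-CKO basal-like cells, against 361 and 609 in WT basal-like cells. It had 540.2 and 488 in Lats1-CKO luminal cells, against 793 and 778 in WT luminal cells. Within each population the Lats1-CKO libraries were lower, and within each genotype the basal-like libraries were lower. The log2 fold change was -0.79 ± 0.23 (SE, adjusted p = 0.333) for the genotype and -0.92 ± 0.23 (adjusted p = 0.355) for the population, by limma. The interaction gave a log2 value of -0.35, and 0 of the 33 genes reached an unadjusted p under 0.05 in it.

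Ndrg1, a stress-induced protein, had 88.4 and 28.5 in Lats1-CKO basal-like cells, against 113 and 58.9 in WT basal-like cells. It had 140.1 and 55.5 in Lats1-CKO luminal cells, against 199 and 131 in WT luminal cells. In WT the basal-like libraries were both below the luminal ones, and in Lats1-CKO they overlapped. Ankrd37, an ankyrin repeat protein, had 2.68 and 6.47 in Lats1-CKO basal-like cells, against 15.5 and 7.16 in WT basal-like cells, and 10.6 and 11.1 in Lats1-CKO luminal cells, against 6.76 and 3.19 in WT luminal cells. Its genotypes did not overlap in either population, with lower Lats1-CKO values in basal-like and higher ones in luminal cells. That difference between the populations had an adjusted p of 0.9998 in the limma interaction, with a log2 value of -2.20 ± 1.05 (SE). Kdm3a (a histone demethylase), Mxi1 (a MYC antagonist) and Bhlhe40 (a repressor of the clock) had log2 fold changes between -0.08 and -0.05 for the genotype, with ranges of 8.55 to 19.1, 38.8 to 78.8 and 141 to 459.9. Ero1l, an oxidase of the endoplasmic reticulum, stayed at or under 7.07 and was not tested. All 6 tested genes of this class had a negative fold change for the genotype, as 4602 of the 9031 genes did. Their median was -0.08. The signs were the same under TMM and table-total scaling, but those of Ankrd37, Kdm3a, Mxi1 and Bhlhe40 were each smaller than their SE and turned positive when single libraries were left out. The values of Ddit4 and Ndrg1 stayed negative without any 1 library.

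**Figure D5:**
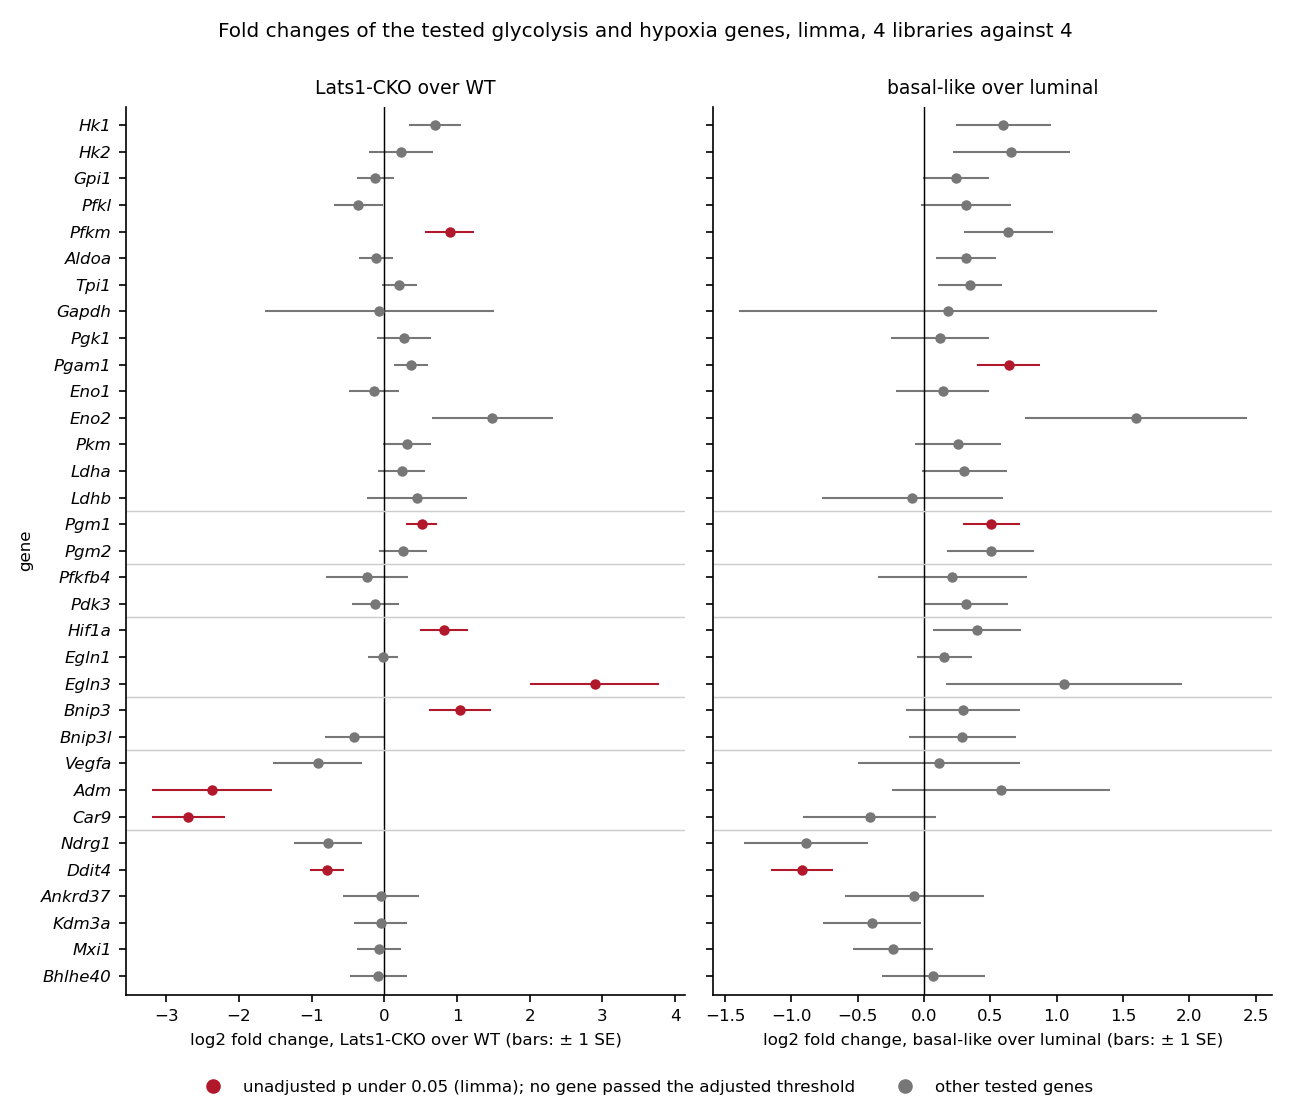
Points are log2 fold changes with bars of 1 SE from limma for the 33 tested genes, for Lats1-CKO over WT (left, 4 libraries against 4) and basal-like over luminal (right). In the left panel Egln3 is at 2.89 and Car9 at -2.70, in the right panel 14 of 15 glycolytic enzymes are above 0, and no gene passed the adjusted threshold in either panel.

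Groups of 2 libraries often did not overlap for single genes. For the genotype in luminal cells 7 of 33 genes lay entirely higher (15.9% of all genes) and 4 entirely lower (15.2%). For the genotype in basal-like cells the counts were 5 higher (17.1%) and 3 lower (18.2%). For the population in Lats1-CKO they were 8 higher (17.8%) and 2 lower (18%), and in WT 5 higher (11.9%) and 3 lower (12.7%). Hif1a, Pfkm and Pgm1 were higher, and Car9 and Ddit4 lower, in Lats1-CKO in both populations. The share of all genes that did so in both populations was not counted, so this list has no background to be read against.

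The spread within groups set the limit of these comparisons. Between the Lats1-CKO basal-like libraries 14 of the 33 genes differed by more than 1 on the log2 scale, compared with 30.8% of all genes. The counts were 7 in WT basal-like (21.2% of all genes), 5 in Lats1-CKO luminal (17.6%) and 7 in WT luminal cells (20.0%). Eno2 differed by more than 1 in all 4 groups and Egln3 in all but WT luminal cells, where it was at 0.

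A further 51 genes of these pathways were listed beside the 40, of which 39 had a row and 31 were tested. By limma 30 of these were called in no comparison. Of the 31, 23 had a positive fold change for the genotype in basal-like cells (48.1% of all genes) and 18 in luminal cells (51.0%). The counts were 24 for the population in Lats1-CKO (51.0%) and 18 in WT (51.3%). They were 20 for the genotype over both (49.0%), 22 for the population over both (51.9%) and 23 for the interaction (48.4%).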

How the data were processed

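The authors used cutadapt to trim the MARS-seq reads, STAR v2.4.2a to map them to mm10 and HTSeq to count them over GENCODE genes that they extended by 1000 bases at the 5′ edge and 100 bases at the 3′ edge, and kept genes with at least 5 reads in 1 library. The deposited values are a signal, each library's read counts over its DESeq2 size factor, as computed by the authors. All values (100%, tolerance 1e-06) were whole multiples of 1 read, so read counts were recovered. The floor of 3 reads covers counting error only, while each SE and SD describes the spread between libraries. The 24 deposited columns with the authors' own comparisons of 6 pairs of groups were not used.

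The groups came from the labels, and replicate numbers follow sample order. limma 3.58.1 in R 4.3.3, with its trend option, was fitted to log2(value + 1) for genes of at least 10 in at least 2 libraries, with all 8 libraries in 1 model that gave each group its own coefficient and left 4 residual degrees of freedom. Adjusted p values are Benjamini-Hochberg over 9031 genes, called under 0.05. Fold changes on this scale understate low genes. edgeR 4.0.16 and DESeq2 1.42.0 were run on the recovered reads of the same genes, with the same adjusted threshold. DESeq2 as the study had set it took over the study's fitting options, not its threshold. The fit was checked only on simulated counts with large changes and an assumed spread between libraries. That spread was not taken from these data, so power and error rates here were not tested. Other alternatives were pseudocounts of 0.5 and 5, no filter, TMM and table-total scaling, only the compared groups, and leaving out each library. The counts of positive glycolytic enzymes under these, and the Egln3 bound without each library, were chosen after seeing the data.

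The members and lists were chosen with earlier results of these data known. Named were Gapdh, genes without overlap of 4 against 4 libraries, and the 3 largest and 3 smallest fold changes of each of 4 pairwise comparisons. Hk1, Ldhb, Pgm1, Hif1a, Bnip3 and Vegfa were given per library after their values were seen. Ratios between isoenzymes and the rank of Gapdh use normalized counts with no length correction, since 3′ counts do not scale with transcript length, and were compared between libraries. Coordinates are from GENCODE M21 (GRCm38), in which 10759 of 10924 symbols were found. Copies of a 3′ end were sought in the last 500 bases. Of the 38 genes with a row, 12 had at least 1 other gene matching. Promoters are from RefSeq (GRCm38.p6). The result of 1 tested gene of the further pathway list is not reported here.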

Additional observations from a re-analysis of the deposited data

How the results depend on the processing

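No paired analysis was possible because the labels give no replicate numbers that groups share. With 2 libraries a group, small differences were not detectable. The count of the 33 genes called by limma stayed at 0 in the 7 comparisons under every limma setting and by edgeR, and was 2 by DESeq2 with its defaults and 1 as the study had set it for the genotype over both populations. DESeq2 (defaults, then as the study had set it) called more of all genes: 4 and 1 for the population in WT, 23 and 22 for the genotype in luminal cells, 190 and 182 for the genotype in basal-like cells, 129 and 130 for the population in Lats1-CKO, 24 and 22 in the interaction, 271 and 225 for the genotype over both, and 127 and 118 for the population over both. limma called 0, 0, 50, 44, 0, 26 and 34 in that order. edgeR called 17 for the genotype in basal-like cells and 21 for the population. Scaling to the table total gave 1 for the genotype in luminal cells, and a fit of only the compared groups gave 0 in both comparisons of Lats1-CKO basal-like cells. For the genotype in luminal cells the median of the 33 genes was 0.13 by limma, and 0.0028 and 0.0019 by DESeq2. Of genes without overlap between the genotypes there were 2, Car9 and Hif1a, under TMM and table-total scaling. Table-total scaling moved the median of all genes by -0.11 for the population in Lats1-CKO.

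Leaving out each library in turn, all genes called ran from 0 to 0 for the population in WT, 0 to 2 for the genotype in luminal cells, 0 to 78 for the genotype in basal-like cells, 9 to 93 for the population in Lats1-CKO, 0 to 2 in the interaction, 0 to 70 for the genotype and 0 to 78 for the population. The median of the 33 genes ran from -0.00061 to 0.37, -0.25 to 0.22, -0.013 to 0.24, 0.12 to 0.38, -0.077 to 0.28, -0.032 to 0.22 and 0.18 to 0.45 in the same order. Genes without overlap numbered 1 to 4 between the genotypes and 1 to 3 between the populations. Gapdh ran from -0.22 to 6.20 for the population in WT and from -0.47 to 5.95 for the genotype in luminal cells, with the negative value without WT luminal replicate 1 in both. It ran from -5.42 to 0.17 for the population in Lats1-CKO, positive without Lats1-CKO basal-like replicate 1, and from -1.68 to 1.54 for the genotype over both, where it was 1.33 without Lats1-CKO basal-like replicate 1, 0.13 when WT basal-like replicate 1 was left out and 1.54 when WT luminal replicate 2 was. The causes were not tested.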
